A study of Mus musculus with 13 samples.

Results

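Trimethylation of histone H3 at lysine 27 (H3K27me3) was read against total histone H3 in mouse embryonic stem cells that lack both SAFB and SAFB2 (DKO), a pair of nuclear RNA-binding scaffold attachment factors. The libraries were chosen by their labels: 4 H3K27me3 and 2 total H3 chromatin immunoprecipitations of DKO cells, 6 of the 13 libraries in the series, read over 57905 regions on 20 chromosomes. H3K27me3 replicate 1 came from DKO clone 4 and H3K27me3 replicates 2 to 4 from DKO clone 13, and both H3 libraries came from clone 13. The 7 other libraries, 5 of H3K27me3 and 2 of H3 from WT cells, serve below as the reference for genotype. DKO and WT cells alike were male CAST/B6 cells with the Rosa26-RMCE background, were given doxycycline for 3 days and were fixed with 0.6% formaldehyde; what doxycycline induces is not given in the labels used here. Nothing in the labels says that replicates were separate cultures, so the p-values below rest on how much these particular libraries vary, and that variation could be technical.

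H3K27me3 is laid down by Polycomb repressive complex PRC2 and is bound by forms of PRC1, and it covers genes that are held silent. In embryonic stem cells the broadest domains lie over developmental regulators, whose promoters are rich in the dinucleotide CG. Total H3 immunoprecipitation recovers nucleosomes whatever their modification, so dividing by it sets the mark against the amount of nucleosomal DNA recovered from the same place.

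The regions were called by the submitters for H3K27me3, so an excess of the mark over H3 somewhere in them is built into their choice, and region length was set by the same calling. The deposited tables hold counts within these regions alone. A log2 ratio below is therefore relative: after scaling by the trimmed mean of M-values (TMM), 0 is the typical called region and not the absence of the mark. H3K27me3 libraries held between 2244851 and 3035866 counts in regions, and H3 libraries held 525847 and 736566. The median region had 12 H3 counts over both libraries, so the H3 denominator limited the precision. The assay reads no RNA and cannot check the deletion of SAFB and SAFB2; no called region overlapped the promoter of either gene.

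Start-site sequences are shown for regions called higher and regions called lower. The 3 highest ranked regions that hold a RefSeq start site were those of Pcdh17, Irs4 and Nr4a3, and they are set beside Th and Gm38684, from 2 of the 6 regions with a start site that were called lower. Each line gives the 250 bases before the start site on the gene's strand, 5′ to 3′, from RefSeq on GRCm38.p6, with every CG in capitals. The windows were chr14:84443313-84443562 (plus strand) for Pcdh17, chrX:141725218-141725467 (minus) for Irs4, chr4:48045055-48045304 (plus) for Nr4a3, chr7:142899996-142900245 (minus) for Th and chr3:121531327-121531576 (plus) for Gm38684.
Pcdh17: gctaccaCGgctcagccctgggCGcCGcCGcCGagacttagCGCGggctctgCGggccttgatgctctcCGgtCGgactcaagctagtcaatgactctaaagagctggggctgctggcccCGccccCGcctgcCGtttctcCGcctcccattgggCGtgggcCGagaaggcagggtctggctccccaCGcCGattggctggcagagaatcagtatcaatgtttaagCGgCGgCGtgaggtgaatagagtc
Irs4: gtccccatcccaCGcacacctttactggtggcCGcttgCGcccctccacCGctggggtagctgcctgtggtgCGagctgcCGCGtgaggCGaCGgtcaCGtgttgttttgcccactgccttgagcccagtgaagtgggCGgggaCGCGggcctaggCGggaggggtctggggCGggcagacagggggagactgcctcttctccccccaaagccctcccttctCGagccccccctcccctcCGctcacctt
Nr4a3: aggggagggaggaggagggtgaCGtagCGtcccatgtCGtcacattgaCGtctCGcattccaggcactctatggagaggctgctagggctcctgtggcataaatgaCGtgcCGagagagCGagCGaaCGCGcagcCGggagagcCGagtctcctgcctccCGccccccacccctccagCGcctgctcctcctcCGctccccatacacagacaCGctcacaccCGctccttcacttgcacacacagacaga
Th: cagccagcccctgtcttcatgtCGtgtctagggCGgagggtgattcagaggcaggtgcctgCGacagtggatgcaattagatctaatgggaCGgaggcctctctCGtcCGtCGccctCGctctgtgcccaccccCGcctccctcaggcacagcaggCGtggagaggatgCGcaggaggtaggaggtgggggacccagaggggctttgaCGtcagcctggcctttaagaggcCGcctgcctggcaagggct
Gm38684: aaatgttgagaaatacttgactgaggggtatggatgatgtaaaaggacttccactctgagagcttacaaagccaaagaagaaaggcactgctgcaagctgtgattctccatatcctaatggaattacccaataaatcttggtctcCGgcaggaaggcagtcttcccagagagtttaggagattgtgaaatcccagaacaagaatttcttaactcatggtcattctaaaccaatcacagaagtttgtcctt
Pcdh17, a protocadherin of neuronal cell adhesion, had 21 CG in this window, Irs4, an insulin receptor substrate, had 17, and Nr4a3, an orphan nuclear receptor, had 18. Th, tyrosine hydroxylase of catecholamine synthesis, had 13, and Gm38684, a predicted gene, had 1. Over all 32851 RefSeq windows of this length the median was 6 CG, 92.1% held at least 1 CG (the motif reads the same on both strands) and 27.3% held 15 or more. A count of CG describes these letters and is not a measure of methylation or of binding. The Pcdh17 region starts at 84443521, so most of the Pcdh17 window lies outside it. The Gm38684 region held 17 H3 counts, fewer than the 20 required for ranking below.

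Of 47749 regions with enough counts to test, 4183 (8.76%) were called higher in H3K27me3 than the typical region relative to H3, and 234 (0.49%) were called lower (edgeR quasi-likelihood test, adjusted p under 0.05). The median log2 ratio was -0.054, with the 10th percentile at -0.71 and the 90th at 0.82. All 4 H3K27me3 libraries lay above both H3 libraries in 8119 regions (17% of those tested). Regions shared between DKO and WT in the deposited lists carried nearly all higher calls, with 4167 of 27715 tested and a median log2 ratio of 0.10. Among regions listed as DKO-specific, 15 of 14419 were higher and 42 lower, with a median of -0.17. Among those listed as WT-specific, 1 of 5615 was higher and 139 lower, with a median of -0.62. These lists were made by the submitters from the same H3K27me3 libraries, so their order is no independent evidence. The zero of the scale moves the counts: with library totals in place of TMM the median fell by 0.50 and the split became 2041 higher (33.5% of calls, against 94.7%) and 4050 lower. Setting 0 at the median of WT-specific regions, an alternative chosen after seeing the data, gave 11267 higher and 17 lower.

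Regions were ranked by log2 ratio where both H3 libraries together held at least 20 counts, which left 16661. The highest ratio belonged to the 6263 bp domain over the start of Pcdh17 on chromosome 14 (84443521 to 84449783). It held 236, 214, 192 and 215 CPM (counts in the region as a share of the TMM-scaled library total) in H3K27me3 replicates 1 to 4 and 45.4 and 33.3 CPM in the H3 libraries. The lowest H3K27me3 library was well clear of the higher H3 library, and the log2 ratio was 2.47 (SE 0.17; edgeR adjusted p = 4.4e-31). Rank 2 was a 1699 bp region inside the predicted gene Gm39002 on chromosome 7, with 72.2 to 82.2 CPM of H3K27me3 against 13.6 and 13.9 CPM of H3 and a log2 ratio of 2.46 (SE 0.26). It was the shortest of the top 10 and rested on 22 H3 counts.

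Rank 3 covered the start of Irs4 on chromosome X (141720154 to 141725488), where H3K27me3 stood at 82.7, 90.05, 79.4 and 95.4 CPM and H3 at 19.7 and 13.9 CPM, for a log2 ratio of 2.40 (SE 0.24). Tsc22d3, a glucocorticoid-induced leucine zipper gene also on X, was at rank 10 with 110, 116, 80.9 and 104 CPM of H3K27me3 against 22.7 and 20.4 CPM of H3 (log2 ratio 2.25, SE 0.22). At Nr4a3 (rank 4, chromosome 4, 48043615 to 48055103) the libraries held 482, 404, 406 and 439 CPM of H3K27me3 against 86.3 and 81.6 CPM of H3, for a log2 ratio of 2.37 (SE 0.13). In none of these did an H3 library reach the lowest H3K27me3 library. That separation was also a condition for naming a region, so it is no separate evidence. It left out none of ranks 1 to 10.

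The remaining top 10 held Gm21321 on chromosome 10 (2.31), the region near Cdk5r2 on chromosome 1 (2.30), Skor1 on chromosome 9 (2.28), Zfp503 on chromosome 14 (2.27) and Amn on chromosome 12 (2.27). Cdk5r2 encodes a neuronal activator of the kinase CDK5, Skor1 a corepressor of the developing nervous system, Zfp503 a developmental zinc-finger repressor, and Amn the amnionless membrane protein of epithelia. Skor1 gave the most precise of these values, with 1088, 1018, 949 and 1028 CPM of H3K27me3 against 186 and 229 CPM of H3 (SE 0.11, 336 H3 counts).

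**Figure D1:**
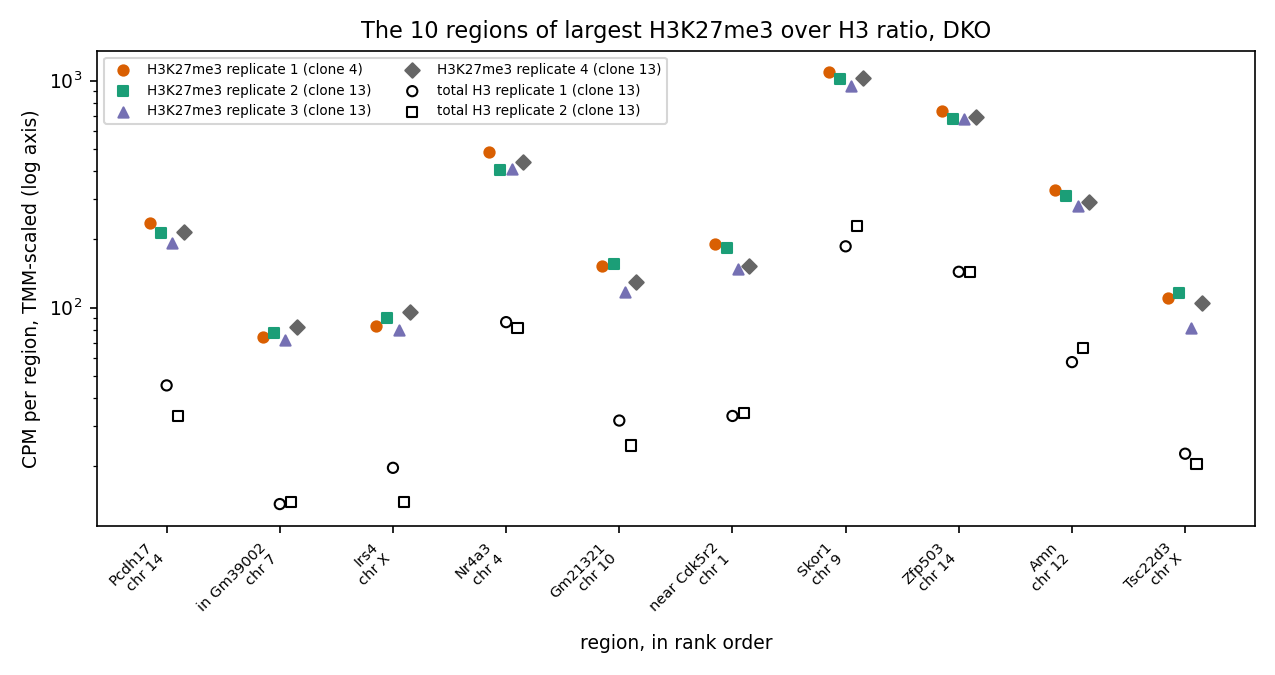
CPM (log axis, TMM-scaled) of each DKO library in the 10 top ranked regions: filled symbols are the 4 H3K27me3 libraries and open symbols the 2 total H3 libraries. In every one of these regions all 4 H3K27me3 points lie above both H3 points, which was a condition for naming them. Pcdh17 shows 192 to 236 CPM against 33.3 and 45.4 CPM.

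The top of the ranking was compared between libraries. When each H3K27me3 library was ranked on its own against the pooled H3, 331 regions were in the top 500 of all 4 libraries, and each library shared 433 to 446 with the joint top 500. When the H3 libraries were used one at a time as the denominator, their top 500 shared 276 regions. All 500 top ranked regions were of the shared class, their median length was 8206 bp against 2156 bp over all ranked regions, and 87.8% held an annotated start site against 28.3%. The H3 minimum for ranking admits short regions only where their H3 counts are high, so the contrast in length may partly rest on it. The value at rank 500 was a log2 ratio of 1.56.

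Every chromosome had a leading domain, named here as the region of largest ratio on it. Only ranked regions called higher, with every H3K27me3 library above both H3 libraries, could be named. On chromosome 2 this was Prdm12, a regulator of sensory neurons, with a log2 ratio of 2.23 (SE 0.12); on chromosome 3 the protocadherin Pcdh10 (2.05, SE 0.15); and on chromosome 5 the homeobox gene Uncx (2.22, SE 0.10). Chromosome 6 was led by the HoxA cluster (2.08, SE 0.084), chromosome 8 by the start of the predicted gene Gm37844 (2.22, SE 0.17) and chromosome 11 by Hic1, a zinc-finger repressor (2.23, SE 0.12). Tfap2a led chromosome 13 (2.15), Nell2 chromosome 15 (2.14), Tbx1 chromosome 16 (2.16), H2-Ab1 chromosome 17 (2.06), Rax chromosome 18 (1.94) and Lbx1 chromosome 19 (2.09). Tfap2a, Tbx1, Rax and Lbx1 are transcription factors of neural crest, pharyngeal, eye and muscle precursors, Nell2 is a secreted neural protein, and H2-Ab1 is a class II histocompatibility gene. The leaders of all chromosomes ran from 2.47 at Pcdh17 to 1.94 at Rax. Neighbours in this order differed by less than their standard errors.

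Length ordered the regions. Regions under 1 kb numbered 37832 and 0.246% of those tested were called higher, with a median log2 ratio of -0.21. Between 1 and 2 kb 2.10% of 10904 regions were higher (median -0.042), between 2 and 5 kb 26.9% of 6680 (0.30), between 5 and 10 kb 80.5% of 1955 (0.94), and at 10 kb or more 96.8% of 534 (1.40). The background over all lengths was 8.76%. Longer regions also hold more counts and are called more easily, so the medians and sums carry the comparison better than the calls. Among the 16661 ranked regions the Spearman correlation between log2 ratio and length was 0.73, given as a description across regions that share the same 6 libraries. Ranking required 20 H3 counts, and the median region under 1 kb held 8. Short regions were thus ranked only where H3 was high, and the correlation may partly rest on this.

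The sums over each class gave the same order in every library. In regions under 1 kb the share of H3K27me3 counts over the mean share of H3 counts was -0.75, -0.75, -0.69 and -0.68 on the log2 scale in H3K27me3 replicates 1 to 4. At 10 kb or more the same log2 ratio was 1.01, 0.97, 0.95 and 1.00. The middle class of 2 to 5 kb was close to 0, with a mean of -0.052 ± 0.017 (SD, n = 4 libraries), and became 0.45 when TMM factors replaced library totals. The exact permutation test over the 6 libraries (two-sided, 15 groupings) gave p = 0.0667 for each class, adjusted over the 5 classes to 0.0667, which is the smallest value this design allows. The groups did not overlap in any class.

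H3K27me3 density was higher in each longer class in all 4 libraries, and H3 density was not. H3K27me3 density went from 8.37 ± 0.22 (SD, n = 4) CPM per kb (share of counts in regions, library totals) in regions under 1 kb to 24.1 ± 0.47 at 10 kb or more. H3 density went from 13.8 and 13.6 CPM per kb in the 2 libraries to 12.1 and 12.2. Between these classes its mean was 12.7, 12.6 and 12.7 CPM per kb, with no steady order. Both are shares of the counts in regions, so only their order across classes can be read. In WT the sums gave log2 ratios of -0.79, -0.58, -0.10, 0.50 and 1.12 from the shortest to the longest class, against -0.72, -0.50, -0.052, 0.49 and 0.98 in DKO. The difference between DKO and WT by length class was not tested.

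Within each set of chromosomes the order by length held. On the 16 chromosomes other than 6, 8, 11 and X, the median log2 ratio of regions went from -0.15 under 1 kb to 1.49 at 10 kb or more. Chromosome 6 went from -0.22 to 1.01, chromosome 8 from -0.34 to 1.24, chromosome 11 from -0.36 to 1.34, and chromosome X from 0.74 to 2.04. At 2 to 5 kb, 36.4% of the regions on the 16 chromosomes were called higher, against 4.93% on chromosome 6, 25.7% on 8, 21.0% on 11 and 80.4% on X. At 10 kb or more nearly all domains were called, so the shares say little there, with 98.7% on the 16 chromosomes, 85.9% of 78 domains on chromosome 6, 96.2% on 8, and every one of the 40 domains on 11 and the 5 on X.

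**Figure D2:**
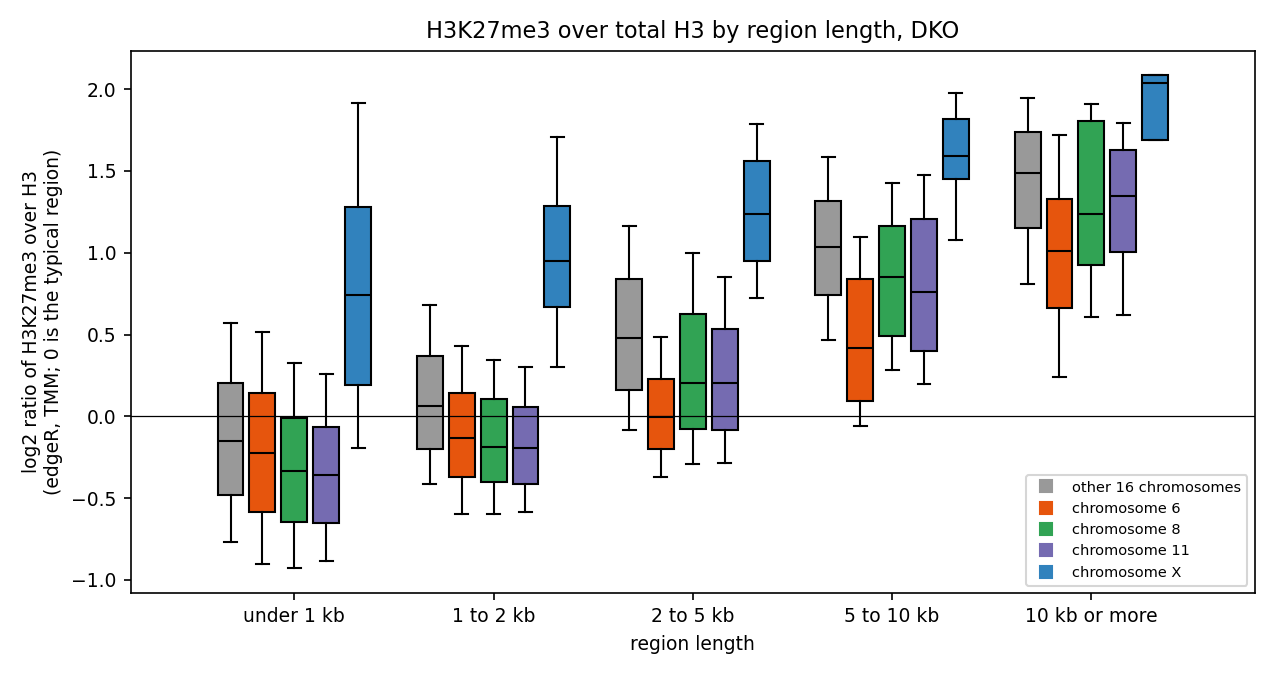
Log2 ratio of H3K27me3 over H3 per tested region (y axis; 0 is the typical region) by region length (x axis), for 5 sets of chromosomes: boxes span the quartiles with the median as a line, and whiskers run from the 10th to the 90th percentile (none for the 5 longest X domains). Medians climb with length in every set, from -0.15 to 1.49 on the 16 chromosomes, and chromosome X lies above and chromosome 6 mostly below them.

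The longest domains were the Hox clusters, the homeobox genes that pattern the body axis. HoxA on chromosome 6 (52146181 to 52279242) was the longest region of all at 133062 bp and held 5493, 4904, 4924 and 5405 CPM of H3K27me3 against 1223 and 1231 CPM of H3, a log2 ratio of 2.08 (SE 0.084; edgeR adjusted p = 3.4e-60). HoxB on chromosome 11 (96249272 to 96377726) held 5769, 6090, 5725 and 6327 CPM against 1559 and 1454 CPM, a log2 ratio of 1.99 (SE 0.083). HoxC on chromosome 15 (102921117 to 103045228) held 4575, 4263, 4094 and 4454 CPM against 1170 and 1127 CPM (1.92, SE 0.085). The H3 libraries lay far below every H3K27me3 library in all 3 clusters.

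HoxD on chromosome 2 was split into a 69370 bp domain over Evx2 and the genes Hoxd8 to Hoxd13 (2.20, SE 0.091), a 38772 bp domain over Hoxd4 (1.65, SE 0.098) and a 6834 bp region over Hoxd1 (1.17, SE 0.16). Hoxb13, apart from the rest of HoxB, had its own 45032 bp domain at 1.498 (SE 0.092). The other longest domains were those of Zic1 and Zic4 on chromosome 9 (1.73), Nr2f1 on chromosome 13 (1.26), a part of the gamma protocadherin cluster on chromosome 18 (1.78) and Pax3 on chromosome 1 (1.71). So the longest domains were high but not at the very top: HoxA ranked 46, and Nr2f1, a nuclear receptor of neural patterning, ranked 1128 of 16661. Short regions could rank high, since a 499 bp region at Gm13286 on chromosome 4 had a log2 ratio of 2.19 (SE 0.27) and ranked 25. It rested on 21 H3 counts, and Gm13286 lies in the interferon gene cluster, a multigene family, so its counts are uncertain. Of the top 500, 388 regions were 5 kb or longer and 4 were under 1 kb, but most regions under 1 kb held too few H3 counts to be ranked.

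By chromosome, the share of H3K27me3 counts over the share of H3 counts was called higher than 1 on 17 of 20 chromosomes (85%) and lower on 1 (5%; edgeR on chromosome sums, library totals). These ratios sum over all regions of a chromosome and must balance across chromosomes, so a low chromosome that holds many regions raises the others. Chromosome 6 was the low one at a log2 ratio of -0.45 (SE 0.083; edgeR adjusted p = 9.2e-07), with -0.45, -0.54, -0.45 and -0.35 in H3K27me3 replicates 1 to 4. Chromosome X was the highest at 0.71 (SE 0.036; edgeR adjusted p = 1.8e-31), with 0.77, 0.72, 0.70 and 0.67. Chromosomes 8 and 11 were near 0, at -0.0040 (SE 0.029) and -0.0075 (SE 0.041), and did not pass the test. The 16 others lay between 0.13 and 0.29. With chromosome 6 left out, 8 chromosomes were called higher (5, 10, 12, 13, 14, 15, 19 and X) and 2 lower, chromosome 8 at -0.15 (SE 0.019) and chromosome 11 at -0.15 (SE 0.049). Under TMM factors 19 were higher, none lower, and chromosome 6 stood at 0.055.

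**Figure D3:**
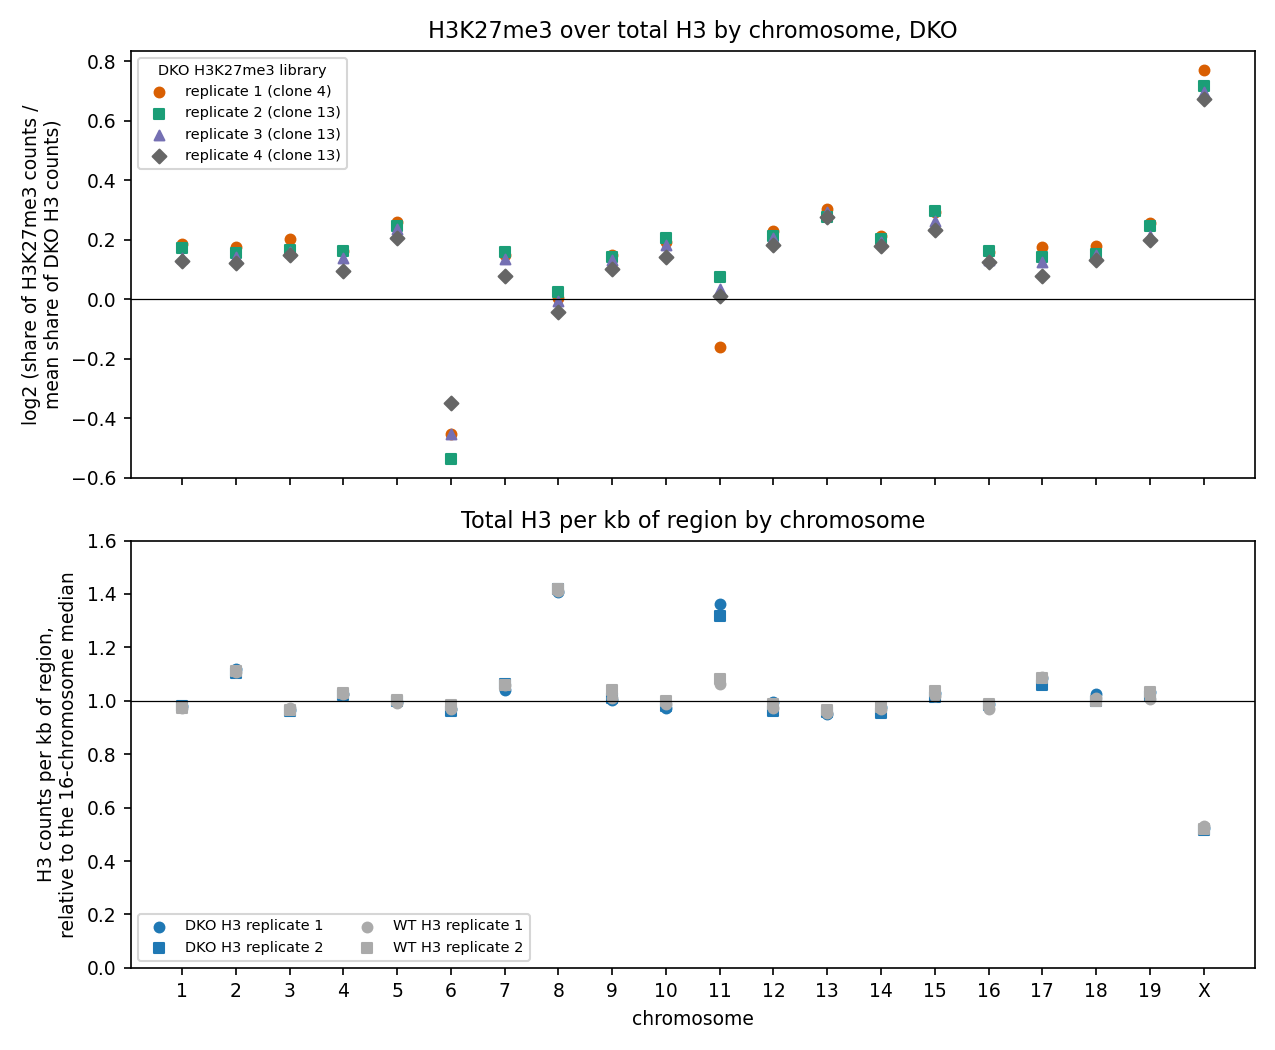
Upper panel: log2 ratio of each DKO H3K27me3 library's share of counts over the mean H3 share, by chromosome; lower panel: H3 counts per kb of region in each DKO and WT H3 library, relative to the median of the 16 chromosomes other than 6, 8, 11 and X. Chromosome X is highest (0.67 to 0.77) and 6 lowest (-0.54 to -0.35) in the upper panel. The lower panel shows X near 0.52 and chromosome 8 near 1.41 in both genotypes. Chromosome 11 is at 1.36 and 1.32 in the DKO H3 libraries, both of clone 13, and at 1.06 and 1.08 in WT.

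Chromosome X had less of both signals per kb, and H3 was the lower of them. Its H3 density was 0.52 of the median of the 16 chromosomes in both DKO libraries, and 0.53 and 0.52 in the WT libraries; the labels give the cells as male, which carry a single X. Its H3K27me3 density was 0.78, 0.75, 0.75 and 0.75 of that median. Of 404 tested X regions 34.7% were called higher, against 12.4% to 14.9% on the 16 chromosomes, and their median log2 ratio was 0.98. Regions on X made up 5% of the top 500 and 0.576% of ranked regions. In regions of 5 kb or more alone the X ratio was 0.51 (SE 0.049) and in regions under 1 kb it was 0.92 (SE 0.070), both called higher.

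Chromosome 6 differed from the others in its regions. It held 24049 regions, 41.5% of all, of which 73.0% were under 1 kb, and 1.78% of its tested regions were called higher. Its H3 density was 0.97 and 0.96 of the 16-chromosome median in the 2 libraries, whereas its H3K27me3 density was 0.62, 0.58, 0.63 and 0.68. Chromosome 6 had 27.3% of ranked regions and 3.4% of the top 500. In regions under 1 kb alone the log2 ratio of chromosome 6 was 0.0047 (SE 0.081) and did not pass the test. The totals there include chromosome 6 itself, with 9185 of 19923 kb covered, which draws its value toward 0. Against totals over all regions, those under 1 kb were at -0.71 ± 0.10 (SD, n = 4) on chromosome 6. On the 16 others they were at -0.69 ± 0.044. The median log2 ratio of tested regions under 1 kb was -0.22 on chromosome 6 and -0.15 on the 16 others. In regions of 5 kb or more the ratio of chromosome 6 was -0.36 (SE 0.034) and was called lower. Chromosome 2 was called lower among regions under 1 kb, at -0.49, but a single 392 bp region held 36.2% of its H3 counts in that class, and without it the value was 0.034 ± 0.063 (SD, n = 4).

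Regions on chromosome 6 were densest beside Rosa26, the locus named in the strain label (Gt(ROSA)26Sor, 113067428 to 113077244). In windows of 10 Mb, they numbered 33.1 per Mb at 100 to 110 Mb on the centromeric side and 287 per Mb in the last 10 Mb before the locus, then 236.5 per Mb just past it and 136 per Mb in the next window. Regions covered 3.23% of the farthest window and 30.7% of the window just past Rosa26. The log2 ratio of shares for regions under 5 kb stayed between -0.65 and -0.50 across all 15 windows. With every region counted, the windows ran from -0.60 to -0.026; the window at 60 to 70 Mb on the centromeric side, which holds HoxA, was at -0.16 ± 0.075 (SD, n = 4).

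**Figure D4:**
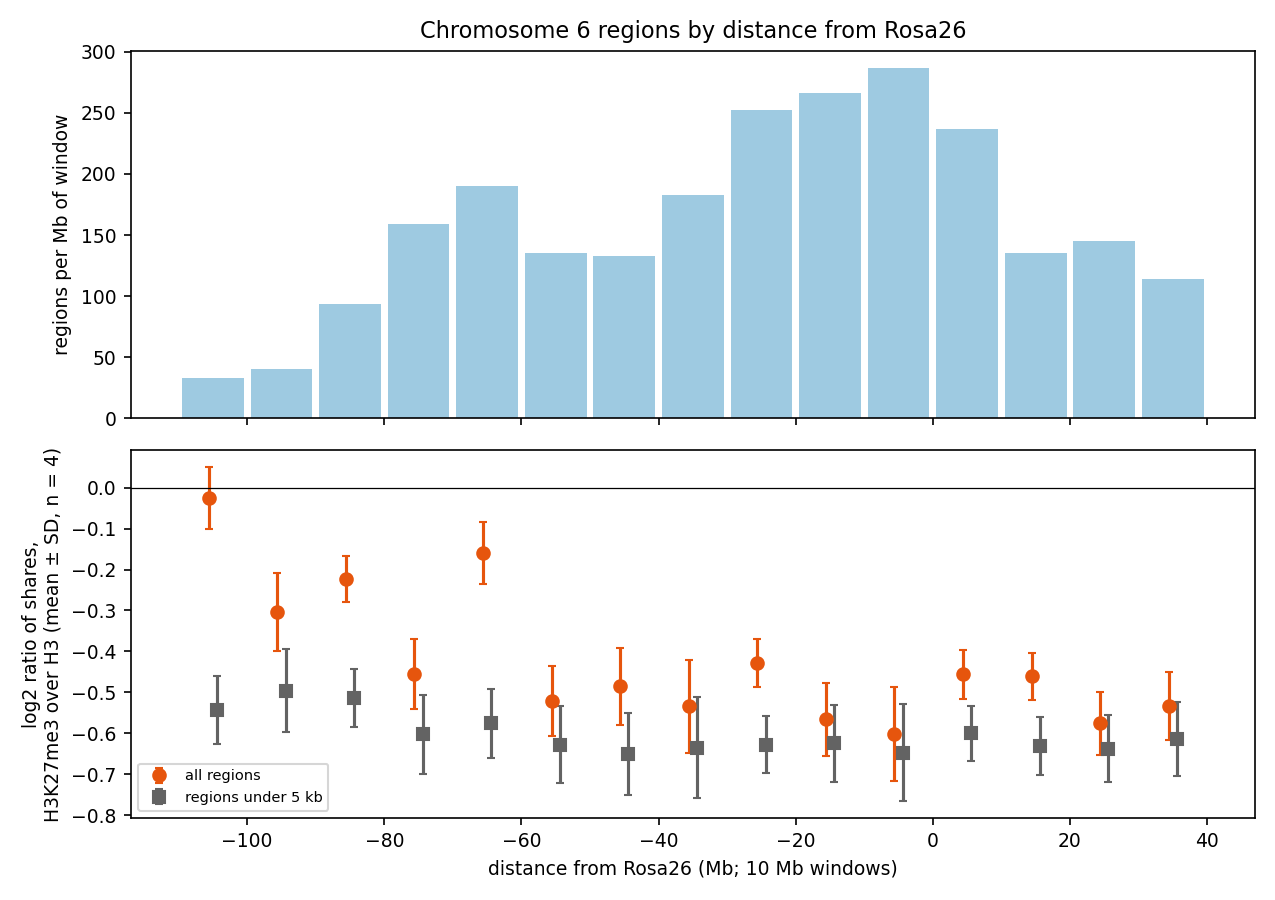
Chromosome 6 in 10 Mb windows by distance from Rosa26 (x axis, Mb): the upper panel gives regions per Mb, and the lower panel the log2 ratio of H3K27me3 over H3 shares for all regions (circles) and regions under 5 kb (squares), mean ± SD over 4 libraries. Density peaks at 287 regions per Mb beside the locus while squares stay between -0.65 and -0.50; the last window is filled only to 36.5 Mb, so its density is a lower value.

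Chromosomes 8 and 11 had more H3 per kb than the 16 others. Chromosome 8 stood at 1.41 and 1.42 of the median in the DKO H3 libraries and at 1.41 and 1.42 in WT, with H3K27me3 between 1.24 and 1.26. Chromosome 11 stood at 1.36 and 1.32 in DKO H3 and at 1.06 and 1.08 in WT H3. The DKO clones parted here: H3K27me3 density on chromosome 11 was 1.05 in the clone 4 library and 1.24, 1.22 and 1.22 in the clone 13 libraries, against 0.93 to 1.01 in WT. The log2 ratio over H3 was accordingly -0.16 with clone 4 and 0.075, 0.034 and 0.0098 with clone 13, and without the clone 4 library the fitted value was 0.040. There was no H3 library of clone 4 in these data, so clone 4 chromatin was divided by H3 of clone 13.

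Tested against WT, H3 on chromosome 11 was higher in DKO by 0.30 on the log2 scale (SE 0.011; edgeR adjusted p = 9.9e-27) and H3K27me3 by 0.32 (SE 0.044; edgeR adjusted p = 5.7e-10). Both DKO H3 libraries and most DKO H3K27me3 libraries were of clone 13, so these p-values do not measure how DKO clones vary. For H3 a trait of clone 13 cannot be told apart from the genotype. H3 calls were made on 3 of 20 chromosomes (15%: 11 up, 6 and 9 down by 0.040 and 0.046) and H3K27me3 calls on 1 (5%). The interaction, DKO against WT in H3K27me3 over H3, was 0.015 on chromosome 11 (SE 0.069; edgeR adjusted p = 0.98). It passed on 0 of 20 chromosomes (0%), with none at an unadjusted p under 0.05, and the values ran from -0.069 on chromosome 6 to 0.079 on chromosome 10. Without WT H3K27me3 replicate 1, 1 chromosome was called higher.

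Region by region, the interaction was called for 1 of 54286 regions (0.00184%), with 3662 at an unadjusted p under 0.05 (edgeR); DESeq2 called none. That region overlaps a ribosomal RNA repeat on chromosome 17 (39842973 to 39848922), where the ratio was lower in DKO by 0.75 on the log2 scale. Its sequence is repeated in the genome and its counts are uncertain, and the call was lost without DKO H3 replicate 1 or without WT H3 replicate 2; without DKO H3 replicate 2 there were 2 such regions. The median standard error was 0.67 on the log2 scale, which limits what single regions could show at this depth. In the 534 domains of 10 kb or more the standard error was 0.17 and the median interaction was -0.17, with the 10th and 90th percentiles at -0.39 and 0.063. Among them 118 had an unadjusted p under 0.05, and none passed adjustment. At Gm50217 (a 524 bp DKO-specific region) the fitted value has no bound, since both DKO H3 libraries held 0 counts there against 9 to 19 H3K27me3 counts.

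The named values of this comparison were of the same kind. HoxA had an interaction of -0.32 (SE 0.087; edgeR adjusted p = 0.33), with a log2 ratio over H3 of 2.08 in DKO and 2.38 in WT. Otx1, a forebrain homeobox gene, had -0.63 (SE 0.14) and Unc45bos had -0.83 (SE 0.19), each at an edgeR adjusted p of 0.16. Both lie on chromosome 11, where H3 was higher by 0.30 on the log2 scale in the DKO libraries of clone 13. Over that chromosome H3K27me3 was higher in DKO by 0.32, and the interaction was 0.015. The part of these differences in the values of Otx1 and Unc45bos was not tested. At Otx1 the DKO H3 libraries held 223 and 209 CPM and the WT H3 libraries 154 and 167 CPM (scaled over all 13 libraries). In the other direction Nfkb2, an NF-kappaB subunit gene, had 2.05 (SE 0.50; edgeR adjusted p = 0.20), with 11.5 to 16.7 CPM of H3K27me3 in DKO and 4.15 to 11.9 CPM in WT (scaled over all 13 libraries). H3 there stood at 11.6 and 8.36 CPM in DKO and at 20.4 and 21.8 CPM in WT, so both signals differed. None of these passed. Across 16653 ranked regions the DKO and WT log2 ratios had a Pearson correlation of 0.76 and a Spearman correlation of 0.68, as a description across regions, and 353 of the top 500 were in both.

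Genes were then taken by lists of known roles, with the region that overlaps each promoter (2000 bp before to 1000 bp after a start site). Where several tested regions overlapped the promoters of a gene, the one of largest log2 ratio was used. That choice can raise the counts and medians of every list. The lists were chosen with earlier results of these data known. All 34 Hox genes of the list, which does not hold every Hox gene, lay in higher regions, 7 distinct ones with a median over genes of 1.99. Over all tested regions 8.76% were higher with a median of -0.054. Over those that hold a start site, the nearer background for every list, 51.6% were higher with a median of 0.68. Neither background was taken as the largest of several regions. All 43 neural regulators were higher, with a median of 1.74. Dbx1, a spinal cord homeobox gene, led them at 2.20 (SE 0.15; 293, 268, 254 and 308 CPM of H3K27me3 against 43.9 and 74.1 CPM of H3), and Nkx6-1, a motor neuron and islet factor, followed at 2.19 (SE 0.13). Pax8 was the lowest at 0.94 (SE 0.17) and Olig1, an oligodendrocyte factor, was at 1.02 (SE 0.18), and with library totals Pax8 did not pass.

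Of 45 mesoderm and endoderm regulators 44 were higher, with a median of 1.58. Tbx1 reached 2.16 (SE 0.11; 765, 837, 738 and 808 CPM against 185 and 169 CPM) and Cdx2, a trophectoderm and gut homeobox factor, 2.12 (SE 0.11). Meox1, a somite homeobox gene on chromosome 11, was the exception: 70.0, 77.4, 75.5 and 66.7 CPM of H3K27me3 overlapped 62.1 and 70.8 CPM of H3, for a log2 ratio of 0.11 (SE 0.17; edgeR adjusted p = 0.86) over 5721 bp. With 0 set at the median of WT-specific regions Meox1 was at 0.73 and was called higher (edgeR adjusted p = 0.00018). Of 41 signalling ligands and receptors 37 were higher and 4 did not pass, with a median of 1.51. The receptor gene Pdgfra (2.21, SE 0.14) and the Notch ligand gene Dll4 (2.13, SE 0.12) were at the top. The region near Ephb3 (-0.37, SE 0.62) and that of Wnt8b (-0.48, SE 0.59) were at the bottom and held 8 and 9 H3 counts.

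Polycomb's own genes were mixed. Of 31 genes for Polycomb and related chromatin proteins, 11 had no region at the promoter, 1 had a region with too few counts to test, 13 did not pass and 6 were higher. The list median was 0.41. Over all regions that hold a start site 51.6% were higher with a median of 0.68, so these counts show no excess for this list. Among the higher ones were the regions near Cbx8 (2.13) and at Bmi1 (1.83), Pcgf5 (1.04), Phc2 (1.00) and Cbx2 (0.87), which are genes for PRC1 subunits. Near Cbx8, H3K27me3 stood at 470, 521, 478 and 496 CPM and H3 at 126 and 101 CPM. The PRC2 genes Eed and Suz12 had no region, and Ezh2, the methyltransferase gene, was at 0.049 and did not pass.

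Of 21 pluripotency genes, known for their role in the stem cell state, 10 had a region and 11 had none, among them Pou5f1, Sox2 and Zfp42. The list median was 0.51, whereas over all regions that hold a start site 51.6% were higher with a median of 0.68. The 4 called higher were Tbx3 (1.45, SE 0.11; also counted among the mesoderm genes), Esrrb (1.39, SE 0.14), Prdm14 (1.08) and Klf4 (0.88). Nanog, on chromosome 6, was at 0.085 and did not pass. A WT-specific region near Klf2 on chromosome 8 (72319584 to 72321040) was called lower: 10.8, 6.58, 6.17 and 13.6 CPM of H3K27me3 lay below 31.8 and 27.9 CPM of H3, a log2 ratio of -1.66 (SE 0.30; edgeR adjusted p = 3.4e-06). In WT the ratio there was -0.046, and the interaction of -1.63 (SE 0.40) did not pass (edgeR adjusted p = 0.20). Of the 10 stem cell genes used to check the cell type, 7 had no region, but 18 of 20 housekeeping genes had none either.

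Of 32 imprinted genes, expressed from 1 parental copy, 17 were higher, 8 did not pass and 7 had no region, with a median of 0.90. Over all regions that hold a start site 51.6% were higher with a median of 0.68, so the count is not a result about imprinted genes. Gnas (2.02, SE 0.14) and Igf2 (1.65, SE 0.12) were the highest, and the regions near Slc22a18 (0.045) and Ppp1r9a (-0.13) the lowest. Of 22 genes near Rosa26, 3 were higher and 15 did not pass, with a median of 0.23; Oxtr, the oxytocin receptor gene, had 1.17 (SE 0.15) and the WT-specific region at Cav3 -1.09 (SE 0.52, not called). Among 12 fibroblast genes, which mark feeder cells, 3 were higher, 4 did not pass and 5 had no region, with a median of 0.39. The medians of the Rosa26 and fibroblast lists were both below the 0.68 of regions that hold a start site. The higher ones were Pdgfrb, whose promoter region holds the start of Cdx1 (1.25), Vim (0.74, SE 0.20) and Col1a1 (0.68); Vim did not pass without DKO H3 replicate 1 or with library totals. Of 20 housekeeping genes 18 had no region and the region near B2m (0.85, SE 0.33) and that of Gusb (-0.070, SE 0.26) did not pass; B2m did pass without DKO H3K27me3 replicate 1. Of 12 genes of the SAFB family and nuclear speckles 11 had no region, and the 14712 bp region near Khdrbs1, an RNA-binding protein gene, was higher at 1.53 (SE 0.12).

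**Figure D5:**
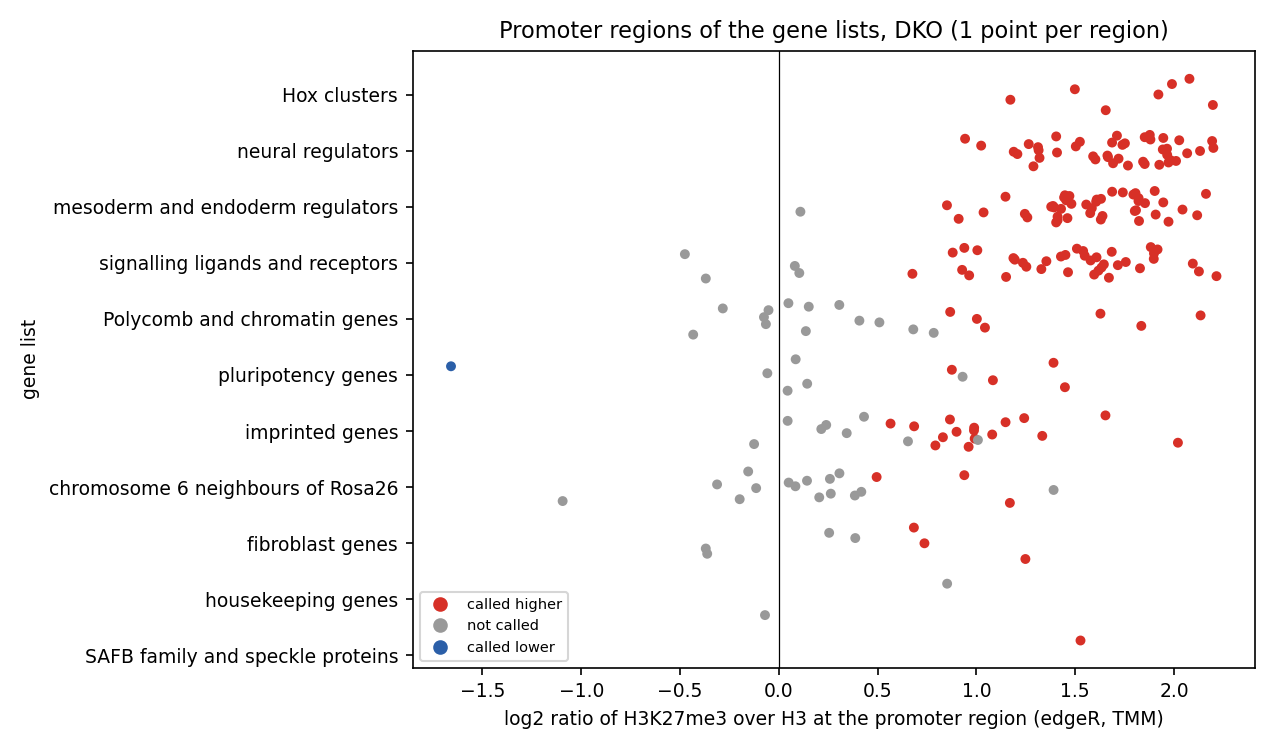
Log2 ratio of H3K27me3 over H3 (x axis, TMM scale) by gene list, for the tested promoter region of largest ratio of each gene. There is 1 point per distinct region, coloured by call. The Hox, neural, mesoderm and endoderm, and signalling lists sit mostly above 0.9, with Meox1 at 0.11 and Wnt8b at -0.48 as uncalled points, while the other lists spread around 0 to 1 and the single lower call is near Klf2.

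Regions with a start site, and those with CG-rich ones, had higher ratios. Of 5773 regions that hold an annotated start site, 51.6% of those tested were called higher, with a median log2 ratio of 0.68. Of 52132 regions without one, 3.00% were higher and the median was -0.11. Where a RefSeq window from 250 bases before to 50 after the start held 15 or more CG, 72.3% of regions were higher (median 0.94), and where every such window held fewer, 34.1% (0.38). The order held within length: at 5 to 10 kb the median was 1.08 for regions with 15 or more CG, 0.94 for those with fewer and 0.55 for regions with no start site. At 10 kb or more the 3 medians were 1.52, 1.36 and 0.78. These windows cover 32851 start sites, of which 34.6% held 15 or more CG; in higher regions 62.8% did, in regions tested and not called 32.0%, and in the top 500 regions 66.7%. The median GC content of these windows was 62.7% in higher regions and 55.7% in regions not called, and its part in the ratios was not tested.

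At the foot of the ranking lay few and short regions. The lowest was a 392 bp DKO-specific region on chromosome 2 (98664938 to 98665329) with no gene in it, where H3 reached 5820 and 4681 CPM and H3K27me3 579, 460, 691 and 666 CPM, a log2 ratio of -3.13 (SE 0.080). It held 3845 and 4361 H3 counts, more than the whole HoxA cluster, and its log2 ratio in WT was -2.90. The next 4 were WT-specific regions of 585 to 805 bp, 3 on chromosome 6 and 1 on chromosome 17, with log2 ratios from -1.82 to -1.67. Each rested on 20 to 22 H3 counts, at or just above the minimum for ranking, which short regions reach only where H3 is high. Each lost its call when a single H3 library was left out, without DKO H3 replicate 2 for 3 of them and without DKO H3 replicate 1 for the other. Of the 234 regions called lower, 128 had 20 or more H3 counts; the number of lower calls was 122 without DKO H3 replicate 1 and 98 without DKO H3 replicate 2.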

How the data were processed

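Chromatin immunoprecipitation reads were processed by the submitters: the tools Bowtie2, MACS2, Subread featureCounts and bedtools and the build mm10 are named in the submitters' processing notes, which give no versions or order. The deposited values are raw counts per region and library, per the file headers, over a union of regions called for H3K27me3; p-values of those calls were not used. Start sites came from deposited promoter tables, and 9 of their columns of per-sample values were not used. The 4 mitochondrial regions were left out.

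Regions were tested with edgeR 4.0.16 (R 4.3.3; quasi-likelihood F test, TMM, Benjamini-Hochberg adjustment, threshold 0.05) after filterByExpr (minimum count 10, minimum total 15), on the 4 H3K27me3 and 2 H3 libraries of DKO cells. The DKO against WT difference was an interaction over 13 libraries. Chromosome sums used library totals, and length classes an exact permutation test. Scripts were tested on simulated data. Ranking required 20 H3 counts over both libraries.

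Named regions were, among called higher regions with 20 H3 counts and all 4 H3K27me3 libraries above both H3 libraries, the top 10 by ratio, the top 2 of each length class and the top 1 of each chromosome; the 5 lowest called lower; the 5 smallest interaction p-values each way; and the extremes of each gene list. The 10 longest regions were added after seeing the data. Prdm14, Klf4, Nanog, Ezh2, Th, Gm38684 and other list members given with a value alone were named after their values were seen. The comparison, the members and the lists were chosen with earlier results of these data known. Replicate libraries differed by more than sampling noise (chi-square per degree of freedom 1.09 for H3 and 1.29 to 1.45 for H3K27me3), so none was counted as a duplicate. Alternatives were library totals, DESeq2 1.42.0, TMM off chromosomes 6 and 11, other filters, each library left out, a replicate block and subsets of regions. 1 named region is not reported here.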

Additional observations from a re-analysis of the deposited data

Results flagged for a closer look

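In 3 of 73 groups of 4 H3K27me3 values, 1 library lay far from the others by Dixon's test; chance does so in about 1 in 20 groups. The Samd11 region held 59.69 CPM in DKO H3K27me3 replicate 2 and 48.1 to 49.0 CPM in the others. The WT-specific region at 44259277 on chromosome 6 held 1.01 CPM in replicate 2 and 4.23 to 4.72 CPM in the others. The domain of Zic1 and Zic4 held 1127.64 CPM in replicate 4 and 1015 to 1033 CPM in the others.

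The ribosomal RNA repeat region on chromosome 17 differed between genotypes, with an interaction of -0.7517 on the log2 scale (SE 0.11; edgeR adjusted p = 5.6e-06). Scaled over all 13 libraries, H3K27me3 stood at 3005 to 6501.5 CPM in the 5 WT libraries and 1567 to 2602 CPM in the 4 DKO libraries, and H3 at 1603 and 1225 CPM in WT and 1261 and 769.7 CPM in DKO. The H3 libraries of the genotypes overlapped, and the H3K27me3 libraries did not. The region is multi-copy, and the part of copy number in this value was not tested.

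Mitochondrial regions, which enter no comparison, held 361, 318, 644 and 497 counts in DKO H3K27me3 replicates 1 to 4 and 102 and 159 counts in the H3 libraries.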

How the results depend on the processing

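Values rest on H3 counts, with a median of 12 per region over both libraries. Against 4183 higher and 234 lower regions, library totals gave 2041 and 4050, and a zero at the WT-specific median (chosen after seeing the data) 11267 and 17. Lower regions numbered 55 with DESeq2, 503 with TMM off chromosomes 6 and 11, 1023 under the H3 count filter, 363 with the 2 H3K27me3 libraries that carry neither Old nor New as a label word, and 98 to 251 when 1 library was left out. The share of calls that were higher was 86.8%, 98.6% and 76.4% under TMM off chromosomes 6 and 11, DESeq2 and the H3 filter.

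For chromosomes, higher and lower calls (17 and 1) became 8 and 2 without chromosome 6, 10 and 2 in regions of 5 kb or more and 3 and 2 under 1 kb (both chosen after seeing the data), and 19 and 0 under TMM. Chromosome 6 moved to 0.0554 under TMM and 0.0047 under 1 kb. Chromosome 8 moved to 0.4981 under TMM, 0.0149 with those same 2 libraries and -0.0158 to 0.0085 with 1 library left out. Chromosome 11 moved to 0.4937 under TMM, 0.0502 in shared regions, 0.022 with the 2 others and -0.036 to 0.0399 with 1 left out. The 2 to 5 kb class moved to 0.4499 under TMM, and the fourth of 5 equal-sized classes (above 867 and up to 1641 bp) was at -0.5607, against 0.49 for the 5 to 10 kb class; these classes hold different regions by construction, so this is the length order again. The cause of the other changes was not tested.

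Regions called lower for the interaction numbered 0 with DESeq2 and 0 to 2 with 1 library left out; chromosomes called higher numbered 0 to 1. The interaction of chromosome 11 was -0.0635 and of chromosome 8 -0.0257 under TMM, and chromosome 11 ran from -0.0138 to 0.0621 with 1 left out. Meox1 turned to -0.3916 (totals), -0.0511 (TMM off 6 and 11) and -0.0937 (H3 filter), Wnt8b to 0.137 and Gusb to 0.5496 with the WT-specific zero, and Gusb ran from -0.3339 to 0.2164 with 1 left out; none of these values was called. With the WT-specific zero Meox1 was at 0.73 and called higher (edgeR adjusted p = 0.00018). Of 959 values of 64 named regions, 932 kept direction and call.

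Replicate numbers did not pair the libraries (correlations of deviations -0.012 and 0.0059; DKO H3K27me3 replicate 1 is of another clone than H3 replicate 1). Pairing of the H3 libraries with the H3K27me3 libraries that carry Old or New as a label word was not tested. A block by replicate number gave 4176 higher and 219 lower regions and moved chromosome 8 to 0.015.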
